A study of Mus musculus with 29 samples.

Results

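The EGF receptor family examined here consisted of 10 genes, 6 ligands (Nrg1, Hbegf, Areg, Ereg, Btc and Tgfa) and 4 receptors (Egfr, Erbb2, Erbb3 and Erbb4), out of 20145 genes named on a mouse Agilent array. Members were found by symbol, through the RefSeq accession that the scanner files give for each probe. All 10 genes were on the array, with 12 probes. The signal of these probes was followed in 29 one-colour arrays, each hybridised with Cy3-labelled RNA from podocytes, the epithelial cells that cover the outside of the glomerular capillary.

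The podocytes came from male Pod-hCD25T/G mice of 8 weeks on a C57BL/6J background and carried either TdTomato or EGFP. The 2 kinds of cell were separated on a flow sorter. The mice received 25 ng of the immunotoxin LMB2 per gram of body weight. LMB2 is an anti-CD25 antibody fragment fused to a bacterial toxin that stops protein synthesis. A heminephrectomy ahead of LMB2 is part of the treatment text for all samples, but the sources used here do not say whether mice taken before LMB2 had this operation. The labels do not say what the colours stand for. In the published mouse line, podocytes with TdTomato carry human CD25 under a podocyte promoter, and podocytes with EGFP in the same glomeruli lack it. The TdTomato groups held 4 arrays at day 0 (before the injection), 4 at day 1, 4 at day 4 and 2 at day 7, and the EGFP groups held 4, 3, 4 and 4 arrays at the same days. The 16 mice, 4 for each day, were different animals at each day, and 13 of them gave both populations. The arrays lay on 4 slides.

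Ligands of this family are made as precursors anchored in the cell membrane, and proteases of the ADAM family cut them free so that they can act on the same cell or on neighbours. A bound receptor pairs with a second receptor and passes the signal to the Ras-ERK and PI3K pathways, which induce early genes such as Myc as well as feedback inhibitors. In podocytes, signalling from HB-EGF to EGFR has been linked in mice to glomerular injury with crescents.

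Sequence upstream of the start was given for 6 members. The windows of Egfr and Erbb2 are shown because these receptors moved in opposite directions in TdTomato podocytes, and that of Tgfa because it was the ligand with a lower signal in TdTomato podocytes at day 4. Each runs from 250 bases before to 50 after the RefSeq start (GRCm38.p6), 5′ to 3′ on the strand of the gene, with the GC box GGGCGG of either strand in capitals. The Egfr window is chr11:16751953-16752252, plus strand, the Erbb2 window chr11:98412234-98412533, plus strand, and the Tgfa window chr6:86194972-86195271, plus strand.
Egfr: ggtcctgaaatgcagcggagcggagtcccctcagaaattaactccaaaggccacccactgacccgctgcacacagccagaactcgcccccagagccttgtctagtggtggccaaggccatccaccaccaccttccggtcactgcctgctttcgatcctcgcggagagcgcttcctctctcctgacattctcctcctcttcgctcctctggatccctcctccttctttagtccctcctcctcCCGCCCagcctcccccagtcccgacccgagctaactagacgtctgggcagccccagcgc
Erbb2: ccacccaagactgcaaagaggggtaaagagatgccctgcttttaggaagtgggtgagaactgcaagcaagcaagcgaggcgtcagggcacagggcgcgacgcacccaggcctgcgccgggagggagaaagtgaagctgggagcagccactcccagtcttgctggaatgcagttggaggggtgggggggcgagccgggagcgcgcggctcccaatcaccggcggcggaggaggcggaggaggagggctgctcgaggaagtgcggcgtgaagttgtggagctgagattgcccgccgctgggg
Tgfa: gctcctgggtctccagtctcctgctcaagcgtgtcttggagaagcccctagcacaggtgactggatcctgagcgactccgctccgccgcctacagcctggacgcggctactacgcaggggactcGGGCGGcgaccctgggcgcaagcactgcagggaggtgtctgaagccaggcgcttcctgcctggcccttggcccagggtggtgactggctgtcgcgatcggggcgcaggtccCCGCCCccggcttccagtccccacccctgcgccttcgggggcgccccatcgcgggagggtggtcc
The GC box, a short motif bound by Sp1, occurred 1 time in the Egfr window, 0 times in the Erbb2 window and 2 times in the Tgfa window, and 35.7% of all 32851 windows of the same length held it. An AP-1 motif (TGANTCA, in 7.81% of all windows), a CRE (TGACGTCA, in 1.79%) and an ETS motif (CCGGAAGT, in 3.89%) were searched on both strands and were in none of these 3 windows, while the Areg window held 1 CRE. The windows were 62.3% G or C for Egfr, 66.0% for Erbb2 and 70.7% for Tgfa, with a median of 52.7% over all windows.

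Signals are given as log2 of the processed signal relative to the 75th percentile of the same array, so 0 marks that percentile. A level of 1 probe is not comparable with that of another. Between 48.2% and 65.5% of the spots of an array were well above background and 0 were saturated. A gene was tested if 3 or more arrays showed a probe of it well above background. This left 15639 genes and 6 members, the ligands Nrg1, Hbegf and Tgfa and the receptors Egfr, Erbb2 and Erbb3. Differences were tested with limma over all 15639 genes with Benjamini-Hochberg adjustment at 0.05, and adjusted p-values below are from that fit. RNA of many sorted cells was measured together, so fewer cells of a type and less RNA per cell cannot be told apart. The 10 podocyte markers chosen to check the label (such as Nphs1, Wt1 and Synpo) were well above background on all 29 arrays.

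The largest changes of the family were in TdTomato podocytes. Nrg1 and Egfr rose by day 1, Hbegf rose by day 4, and Erbb2 fell at days 1 and 4, while at days 1 and 4 no member passed the test in EGFP podocytes. At day 7 Nrg1 and Hbegf were higher than before the injection in both populations, and the EGFP call of Hbegf was lost without any 1 of 5 arrays. Among the 6 tested members 3 passed the test in TdTomato podocytes at day 1 against day 0, when 51.7% of all tested genes did. At day 4, 6 passed, 3 higher and 3 lower, with 57.3% of all genes, and at day 7, 3 passed, with 19.3%. In EGFP podocytes 0 members passed with limma at day 1 (0.0256% of all genes), and 2 members and 467 genes had an unadjusted p under 0.05. At day 4, 0 passed (0.595% of all genes), with 1 member and 1224 genes at an unadjusted p under 0.05, and 2 passed at day 7 (7.25%). These counts cover only the members bright enough to be tested, and in TdTomato podocytes at day 1 the members' share was close to that of all genes and is not a result about the family.

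**Figure D1:**
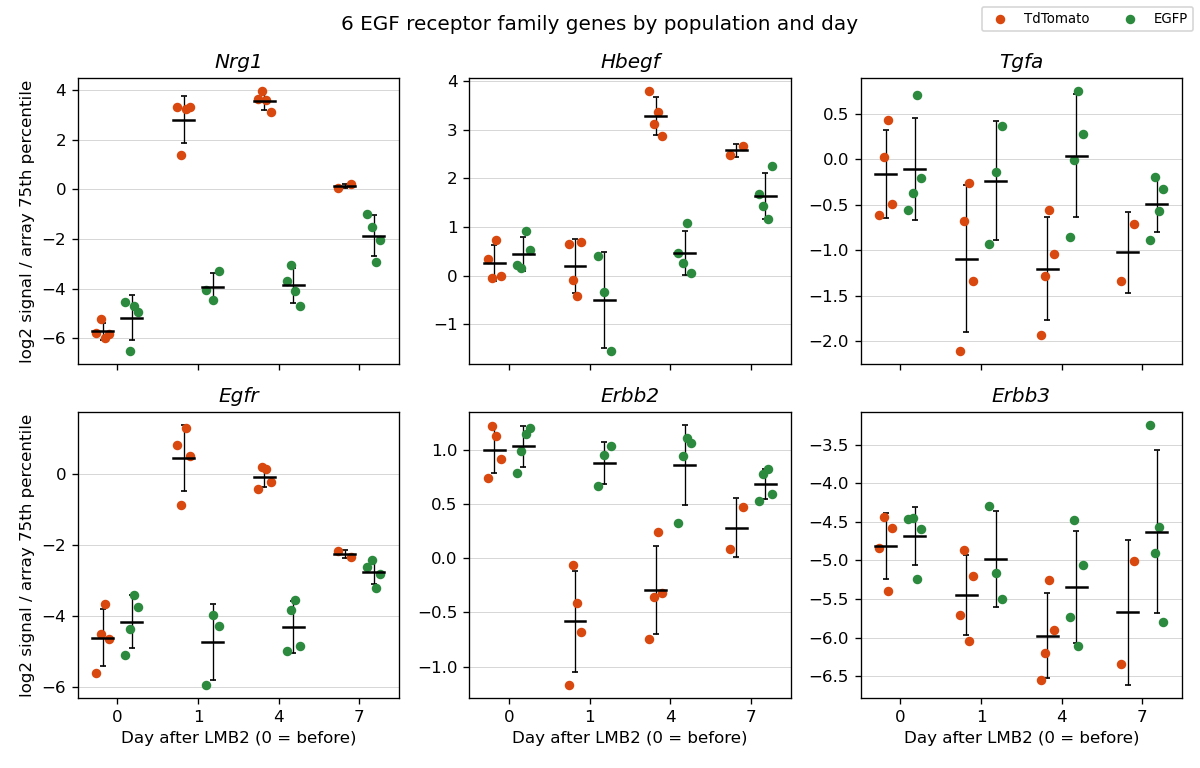
Log2 signal relative to the array's 75th percentile (vertical axis) of the 6 tested members by day (horizontal axis), with TdTomato points left of EGFP points. Each point is an array, each horizontal bar a group mean and each vertical line ± SD of the group. The TdTomato points of Nrg1 and Egfr stand above the EGFP points at days 1 and 4, those of Hbegf at day 4, and those of Erbb2 lie below them at days 1 and 4.

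Nrg1 encodes neuregulin 1, a ligand of ERBB3 and ERBB4. In TdTomato podocytes the Nrg1 signal was -5.79, -5.22, -6.00 and -5.84 at day 0, 3.32, 1.40, 3.24 and 3.31 at day 1, 3.63, 3.95, 3.60 and 3.10 at day 4, and 0.07 and 0.20 at day 7. In EGFP podocytes it was -4.53, -6.52, -4.68 and -4.96 at day 0, -4.05, -4.47 and -3.30 at day 1, -3.67, -3.03, -4.08 and -4.69 at day 4, and -0.98, -1.51, -2.94 and -2.02 at day 7. All 10 TdTomato arrays of the later days lay above every day 0 array of either population. The probe was well above background on 0 of 4 TdTomato arrays before the injection, and on every TdTomato array after it. On EGFP arrays it was well above background on 2 of 4 at day 0, 2 of 3 at day 1, 1 of 4 at day 4 and 4 of 4 at day 7.

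The Nrg1 signal was at least 201-fold higher at day 1 than at day 0 in TdTomato podocytes (log2 change 8.53 ± 0.47 SE, adjusted p 1.0e-12) and at least 339-fold higher at day 4 (9.28 ± 0.47, adjusted p 1.3e-13). It was at least 31.4-fold higher at day 7 (5.84 ± 0.58, adjusted p 8.9e-08). The bounds set the TdTomato mean against a day 0 mean that takes, for each array, the higher of its lowest signal well above background and the probe's own signal. The day 4 and day 1 levels overlapped (0.75 ± 0.47 for day 4 over day 1, adjusted p 0.19), and from day 4 Nrg1 fell by 3.44 ± 0.58 on the log2 scale at day 7, to a 10.8-fold lower signal (adjusted p 1.3e-04). With normexp background correction, which adds an offset of 50 to each signal, the TdTomato changes were 4.52 at day 1, 5.26 at day 4 and 2.16 at day 7, and all passed. One day 1 array, mouse MC541, stood at 1.40 below the other 3 (3.24 to 3.32).

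In EGFP podocytes Nrg1 passed the test against day 0 at day 7, and not at days 1 or 4. Its change was 1.23 ± 0.51 at day 1 (adjusted p 1) and 1.30 ± 0.47 at day 4 (adjusted p 0.37), neither past the test, and at day 7 it was 3.31 ± 0.47 (adjusted p 3.2e-05), with 2 of 4 day 0 arrays well above background. All 4 day 7 arrays lay above all EGFP arrays of the earlier days. The change from day 4 to day 7 (2.01 ± 0.47, adjusted p 0.011) no longer passed with normexp (0.71, adjusted p 0.26) or in a fit of only the 2 groups. Nor did it pass without 1 of the arrays MC221 at day 7 and MC823 at day 4, or in the authors' values, which lack MC221. With normexp the rise at day 7 over day 0 was 1.02 (adjusted p 0.031). On a linear scale the EGFP rise was 25.7% of the TdTomato rise at day 7.

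Before LMB2 the Nrg1 difference of TdTomato from EGFP podocytes was -0.54 ± 0.47 (adjusted p 1), which did not pass. Nrg1 was higher in TdTomato than in EGFP podocytes by 6.75 ± 0.51 on the log2 scale at day 1 (adjusted p 2.7e-10) and by 7.44 ± 0.47 at day 4 (adjusted p 8.3e-12). No fold is given, since the EGFP signal was well above background on 2 of 3 arrays at day 1 and 1 of 4 at day 4. With normexp these differences were 4.38 and 5.05, and both passed. The change from day 0 was larger in TdTomato than in EGFP podocytes by 7.30 ± 0.69 at day 1 (adjusted p 4.3e-08) and by 7.98 ± 0.67 at day 4 (adjusted p 4.0e-09), or by 4.28 and 4.95 with normexp. At day 7 Nrg1 was 3.99-fold higher in TdTomato podocytes (2.0 ± 0.58, adjusted p 0.035), and this call depended on the fit. It was lost with the mouse as a replicate block (1.38, adjusted p 0.12) and with only the 2 groups fitted (adjusted p 0.12). Between the populations this block was a fixed term for each mouse, so only mice with both populations counted. The call was also lost without any 1 of the TdTomato arrays MC221 and MC791 and the EGFP arrays MC824 and MC943 (1.64 to 2.06). In the authors' values (2.33, call lost), which lack MC221, the TdTomato group at day 7 was MC791 alone. The difference between the populations in the change to day 7 was 2.54 ± 0.75 (adjusted p 0.073).

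Hbegf encodes heparin-binding EGF-like growth factor, a ligand of EGFR and ERBB4. In TdTomato podocytes its signal was 0.35, -0.05, 0.74 and -0.01 at day 0, 0.65, -0.09, -0.43 and 0.70 at day 1, 3.79, 3.12, 3.36 and 2.88 at day 4, and 2.48 and 2.67 at day 7. In EGFP podocytes it was 0.21, 0.15, 0.91 and 0.53 at day 0, 0.41, -0.34 and -1.55 at day 1, 0.46, 0.26, 1.09 and 0.05 at day 4, and 1.68, 1.44, 1.16 and 2.26 at day 7. Hbegf at day 1 overlapped day 0 in both populations. The TdTomato arrays of days 4 and 7 lay above all others, followed by the EGFP arrays of day 7. The probe was well above background on all 29 arrays.

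At day 4 Hbegf was 8.15-fold higher than at day 0 in TdTomato podocytes (3.03 ± 0.35, adjusted p 1.4e-07), and at day 7 it was 4.97-fold higher (2.31 ± 0.42, adjusted p 3.8e-04). At day 1 its change was -0.05 ± 0.35 (adjusted p 0.92), and day 4 exceeded day 1 by 3.08 ± 0.35 (8.45-fold, adjusted p 9.1e-08). In EGFP podocytes Hbegf changed by -0.95 ± 0.37 at day 1 (adjusted p 1) and 0.01 ± 0.35 at day 4 (adjusted p 1). At day 7 it was 2.26-fold higher than at day 0 (1.18 ± 0.35, adjusted p 0.037). That call was lost without any 1 of 5 arrays, MC122, MC731 and MC753 at day 0 and MC221 and MC943 at day 7 (0.97 to 1.21). It was also lost in the authors' values (adjusted p 0.074), which lack MC221.

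Between the populations, Hbegf was 7.08-fold higher in TdTomato podocytes at day 4 (2.82 ± 0.35, adjusted p 4.3e-07). The change from day 0 to day 4 was larger in TdTomato podocytes by 3.02 ± 0.49 (adjusted p 4.8e-05). The difference of TdTomato from EGFP was 0.70 ± 0.37 at day 1 (adjusted p 0.13) and 0.94 ± 0.42 at day 7 (adjusted p 0.20). With the mouse as a replicate block these differences passed, at 0.54 (adjusted p 0.05 after rounding) and 1.02 (adjusted p 0.034). The EGFP rise at day 7 was 38.6% of the TdTomato rise on a linear scale.

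Tgfa encodes transforming growth factor alpha, a ligand of EGFR, and its signal was lower in TdTomato podocytes at day 4. In TdTomato podocytes its signal was -0.61, 0.02, 0.43 and -0.49 at day 0, -2.11, -0.68, -0.26 and -1.33 at day 1, -1.93, -1.28, -0.56 and -1.04 at day 4, and -1.34 and -0.71 at day 7. In EGFP podocytes it averaged -0.11 ± 0.56 at day 0, -0.24 ± 0.65 at day 1 (n = 3), 0.04 ± 0.67 at day 4 and -0.50 ± 0.30 at day 7 (SD, n = 4 at the other days). The groups overlapped on most days, with lower arrays among the TdTomato samples after LMB2. At day 4 Tgfa was 2.06-fold lower than at day 0 in TdTomato podocytes (-1.04 ± 0.40, adjusted p 0.030) and 2.36-fold lower than in EGFP podocytes (-1.24 ± 0.40, adjusted p 0.010). The call against day 0 was lost without any 1 of the arrays MC731, MC742, MC151 and MC692 (-1.02 to -0.80). At day 1 the change was -0.93 ± 0.40 (adjusted p 0.055), and with the mouse as a replicate block its adjusted p was 0.024. The day 1 difference from EGFP podocytes was -0.86 ± 0.43 (adjusted p 0.11), and -0.78 (adjusted p 7.2e-04) with the block. The difference between the populations in the change to day 4 was -1.19 ± 0.57 (adjusted p 0.093), with an adjusted p of 2.3e-04 with the block, and that to day 1 was -0.81 ± 0.59 (adjusted p 0.32), or -0.73 (adjusted p 0.0086) with the block. In EGFP podocytes no change of Tgfa passed the test.

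The other 3 ligands of the family were dim. Areg, which encodes amphiregulin, was well above background on 0 of 29 arrays, with signals of -7.72 to -5.02, and Btc, which encodes betacellulin, on 0 of 29, with -7.78 to -5.56. Ereg, which encodes epiregulin, was above background on 1 of 29 arrays, TdTomato of mouse MC692 at day 4, at -3.15. Changes below the detection limit were not detectable with these probes.

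Egfr encodes the receptor for EGF, HB-EGF and TGF-alpha. In TdTomato podocytes its signal was -5.61, -4.50, -3.68 and -4.64 at day 0, 0.83, -0.86, 1.30 and 0.50 at day 1, -0.41, 0.20, 0.13 and -0.24 at day 4, and -2.17 and -2.34 at day 7. In EGFP podocytes it was -5.10, -4.38, -3.40 and -3.76 at day 0, -5.95, -3.96 and -4.28 at day 1, -4.99, -3.84, -3.54 and -4.86 at day 4, and -2.62, -2.44, -3.22 and -2.81 at day 7. The TdTomato arrays of days 1 and 4 lay above all other arrays, then came TdTomato day 7 and EGFP day 7, and the remaining 4 groups overlapped. The probe was well above background on 25 of 29 arrays. The day 1 array of MC541, low for Nrg1, was also the lowest of its group for Egfr.

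Egfr was 33.0-fold higher at day 1 than at day 0 in TdTomato podocytes (5.04 ± 0.48, adjusted p 6.9e-09) and 23.0-fold higher at day 4 (4.53 ± 0.48, adjusted p 4.3e-08). It was 5.10-fold higher at day 7 (2.35 ± 0.59, adjusted p 0.0068), and 4.52-fold lower at day 7 than at day 4 (-2.17 ± 0.59, adjusted p 0.0094). The TdTomato day 0 mean, -4.61, lay close to the lowest signals well above background, -4.84 on average. The folds against day 0 are therefore uncertain in size. The day 7 rise over day 0 was lost with normexp (0.77, adjusted p 0.061) and without the TdTomato array of MC221 (2.26), which left MC791 alone. It was also lost in the authors' values, which lack MC221 and so are no separate check. The fall at day 7 against day 4 was lost without MC221 (-2.26) and without MC791 (-2.09), and in the authors' values, again without MC221. Each of these fits left a single TdTomato array at day 7. With normexp the changes at days 1 and 4 were 2.38 and 1.94, and both passed. In EGFP podocytes the day 7 change was 1.39 ± 0.48 (adjusted p 0.088), and those at days 1 and 4 were -0.57 ± 0.52 and -0.15 ± 0.48 (adjusted p 1 each).

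Egfr was higher in TdTomato than in EGFP podocytes by 5.17 ± 0.52 on the log2 scale at day 1 (adjusted p 2.2e-08) and by 4.22 ± 0.48 at day 4 (adjusted p 1.5e-07). With normexp these differences were 2.46 and 1.93. No fold is given, since the EGFP means, -4.73 and -4.30, lay close to the lowest signals well above background, -4.83 and -4.31 on average. The Egfr probe was well above background on 3 of 4 TdTomato arrays at day 0, and on 2 of 3 EGFP arrays at day 1 and 2 of 4 at day 4. At day 7 the difference was 0.52 ± 0.59 (adjusted p 0.60). The change from day 0 was larger in TdTomato podocytes by 5.61 ± 0.71 at day 1 (adjusted p 1.9e-06) and 4.67 ± 0.68 at day 4 (adjusted p 1.3e-05).

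The array carried 3 Egfr probes. The one used here, the brightest on average, has the accession NM_207655, and the other 2 have NM_007912. The second probe past the filter averaged -3.85 ± 0.20 at day 0, -1.84 ± 0.85 at day 1, -2.54 ± 0.25 at day 4 and -3.01 ± 0.21 at day 7 in TdTomato podocytes (SD, n = 4, 4, 4 and 2). In EGFP podocytes it averaged -3.38, -4.44, -3.82 and -3.71 at days 0, 1, 4 and 7. Each of its 10 later TdTomato arrays was above its TdTomato day 0 arrays. Its rise at days 1 and 4 was smaller than that of the probe used, so the folds given for Egfr depend on the probe. Its EGFP mean was not higher at day 7 than at day 0. The third probe was well above background on 3 of 29 arrays.

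**Figure D2:**
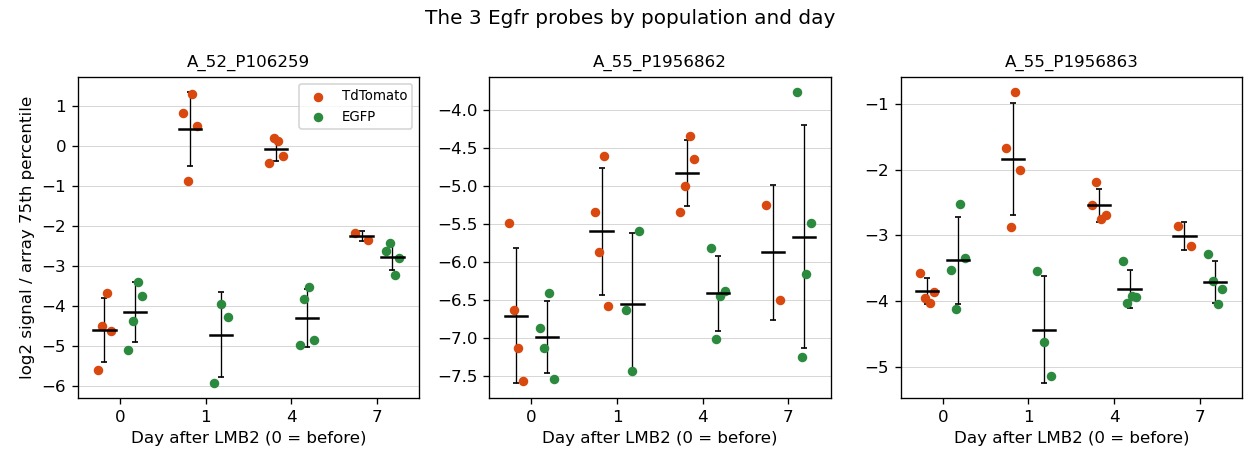
Log2 signal relative to the array's 75th percentile (vertical axis) of the 3 Egfr probes, one panel each, by day (horizontal axis), with TdTomato points left of EGFP points. Points are arrays, horizontal bars group means and vertical lines ± SD of the group. In the probe used, TdTomato lies between -0.86 and 1.30 at day 1 and all EGFP arrays of that day lie at or below -3.96.

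Erbb2 encodes a receptor with no known ligand of its own that pairs with the other receptors. Its signal in TdTomato podocytes was 0.74, 1.22, 1.12 and 0.91 at day 0, -1.17, -0.07, -0.42 and -0.68 at day 1, -0.75, -0.35, 0.24 and -0.32 at day 4, and 0.09 and 0.47 at day 7. In EGFP podocytes it averaged 1.03 ± 0.19 at day 0, 0.88 ± 0.19 at day 1 (n = 3), 0.86 ± 0.36 at day 4 and 0.68 ± 0.14 at day 7 (SD, n = 4 at the other days). All TdTomato arrays of days 1, 4 and 7 lay below the TdTomato arrays of day 0, and all EGFP groups overlapped. The probe was well above background on all 29 arrays.

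In TdTomato podocytes Erbb2 fell by 1.58 ± 0.22 on the log2 scale at day 1, to a 2.99-fold lower signal (adjusted p 1.5e-06), and by 1.29 ± 0.22 at day 4, to a 2.45-fold lower signal (adjusted p 2.9e-05). At day 7 its change was -0.72 ± 0.27 (adjusted p 0.062), and with the mouse as a replicate block it was -0.70 (adjusted p 0.043). In EGFP podocytes the changes were -0.15 ± 0.24 at day 1 (adjusted p 1), -0.17 ± 0.22 at day 4 (adjusted p 0.97) and -0.35 ± 0.22 at day 7 (adjusted p 0.42). Erbb2 was 2.76-fold lower in TdTomato than in EGFP podocytes at day 1 (-1.46 ± 0.24, adjusted p 1.4e-05) and 2.22-fold lower at day 4 (-1.15 ± 0.22, adjusted p 9.7e-05). The changes from day 0 differed between the populations by -1.43 ± 0.32 at day 1 (adjusted p 1.0e-03) and -1.12 ± 0.31 at day 4 (adjusted p 0.0055). The median change of all tested genes in TdTomato podocytes was -0.13 at day 1 and -0.28 at day 4, smaller than that of Erbb2.

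Erbb3, which encodes a neuregulin receptor with little kinase activity of its own, was near the background, on 10 of 29 arrays above it. Its group means were -4.81, -5.45, -5.97 and -5.67 in TdTomato podocytes and -4.69, -4.98, -5.34 and -4.63 in EGFP podocytes at days 0, 1, 4 and 7. The change at day 4 in TdTomato podocytes was -1.16 ± 0.45 (adjusted p 0.031), with 0 of 4 arrays above background at day 4 and 2 of 4 at day 0. This call did not last with normexp (-0.31, adjusted p 0.17), with the mouse as a replicate block (adjusted p 0.09) or without any 1 of 5 arrays (MC122, MC731 and MC753 at day 0, MC151 and MC692 at day 4). Erbb4, which encodes a second neuregulin receptor, was above background on 1 of 29 arrays, at -3.08 on the same MC692 TdTomato array that detected Ereg. That array had the highest share of spots well above background of all 29, 65.5%.

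**Figure D3:**
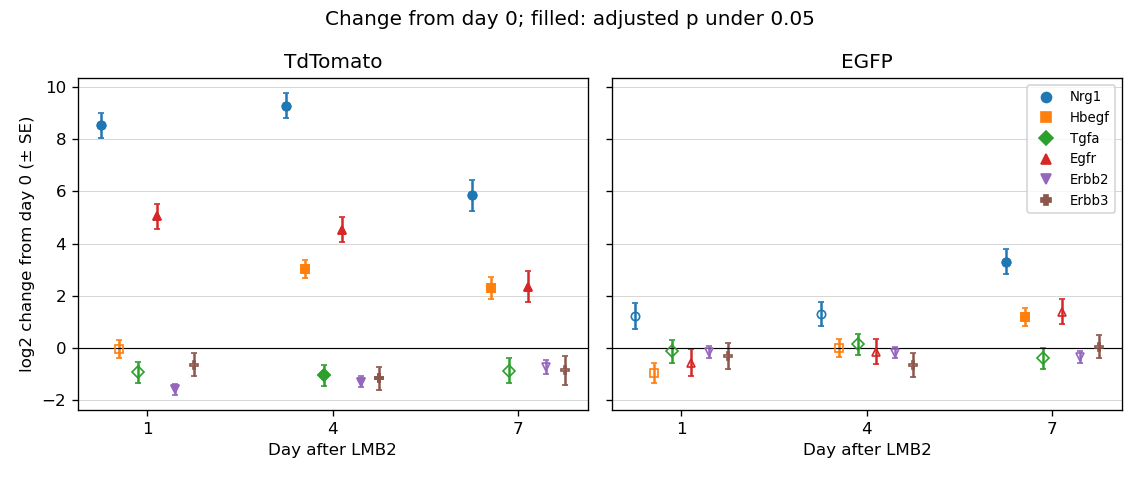
Log2 change from day 0 (vertical axis) of the 6 tested members at days 1, 4 and 7 (horizontal axis) in TdTomato (left panel) and EGFP podocytes (right panel), with bars of ± SE from the limma fit. Filled points have an adjusted p under 0.05. Nrg1 reaches 9.28 at day 4 in TdTomato podocytes and 3.31 at day 7 in EGFP podocytes, and Erbb2 is the lowest point at days 1 and 4 in TdTomato podocytes.

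Between the populations 0 members passed at day 0 with limma, when 0 genes did (0% of all tested genes; 0 members and 74 genes had an unadjusted p under 0.05), 3 at day 1 (49.3%), 5 at day 4 (59.6%) and 1 at day 7 (6.98%). The change from day 0 differed between the populations for 3 members at day 1 (38.4% of all genes), 4 at day 4 (44.3%) and 0 at day 7 (2.69%, with 2 members and 1927 genes at an unadjusted p under 0.05). With the mouse as a replicate block the day 1 counts were 5 for TdTomato against EGFP, with 60.8% of all genes, and 5 for the difference of changes, with 53.8% of all genes. Between days, 1 member passed for day 4 against day 1 in TdTomato podocytes (50.4% of all genes), 2 for day 7 against day 4 (24.5%), and 1 for day 7 against day 4 in EGFP podocytes (4.67%).

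Among the calls for a later day against day 0 and for TdTomato against EGFP, the direction was the same on each slide that held both groups, except for Erbb3 in TdTomato podocytes at day 4, whose change was -1.76 to 0.15 over the 4 slides. Within the 4 slides the Nrg1 change in TdTomato podocytes was 6.62 to 9.24 at day 1 and 8.94 to 9.60 at day 4. The Egfr change was 3.63 to 6.44 at day 1 and 3.80 to 5.20 at day 4. The Hbegf change at day 4 was 2.62 to 3.43, and the Erbb2 change was -1.91 to -1.28 at day 1. In EGFP podocytes at day 7 the change within 3 slides was 2.20 to 5.0 for Nrg1 and 0.79 to 1.46 for Hbegf.

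Over the 8 group means, Nrg1 and Egfr had a Pearson r of 0.968, Egfr and Erbb2 one of -0.979, and Nrg1 and Hbegf one of 0.628. These describe 8 points that share arrays and day 0 groups. Among tested genes outside the family, the group means of Nrg1 were most like those of Nfkbid (r 0.996), Agbl3 (0.992) and Gem (0.991). Those of Hbegf were most like Cldn11 (0.996), Nppb (0.984) and Nfix (0.982), and those of Egfr most like Prr5l (0.997), Prr7 (0.992) and Gem (0.990). For Tgfa they were Zfp395 and Cdkn1b (0.995 each) and Oxsm (0.994), for Erbb2 Trabd2b and Ttll5 (0.998 each) and Fign (0.997), and for Erbb3 Fancb (0.966), Slbp (0.963) and 9530077C05Rik (0.959).

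Markers of other cell types moved with some of these results. The summed linear level of 10 endothelial markers was 52.6 to 87.0 in TdTomato podocytes at day 7 and 10.9 to 21.3 at day 0, with 6 of 10 markers higher, and it was 10.4 to 14.5 in EGFP podocytes at day 7. At day 4 the TdTomato sums ran from 6.92 to 59.8. The sum of 10 mesangial and smooth muscle markers was 8.72 to 16.8 in TdTomato podocytes and 9.76 to 13.2 in EGFP podocytes at day 7, against 3.77 to 7.01 and 3.43 to 7.60 at day 0. Of these markers 5 of 10 were higher in TdTomato podocytes (median change 2.03) and 2 of 10 in EGFP podocytes (median change -0.04). The list had 7 of 10 markers well above background on every EGFP array of day 7. Myocd was above background on 0 EGFP arrays of day 7, and also on 0 at day 0. The sum of 8 myeloid markers was 83.3 to 265 at day 1 and 38.4 to 56.6 at day 0 in TdTomato podocytes, with 1 of 8 markers higher and Lyz2 and C1qa above background on 0 arrays at day 0. One TdTomato day 4 array, MC823, had a proximal tubule sum of 194, with 2.17 to 3.88 on the other 3. Its Nrg1 and Hbegf signals, 3.10 and 2.88, were the lowest of the group, and its Egfr, Erbb2, Tgfa and Erbb3 signals were not. Podocyte markers were lower for 6 of 10 at day 1, 8 at day 4 and 5 at day 7 in TdTomato podocytes, and for 0 in EGFP podocytes. Over all genes 27.9%, 35.9% and 8.45% fell in TdTomato podocytes at these days, and 23.8%, 21.4% and 10.9% rose. In EGFP podocytes at day 7, 5.33% of all genes rose and 1.92% fell. The part of other cell types in the results for Nrg1, Hbegf and Egfr was not tested.

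The other genes of the pathway were followed in 5 lists. Among the other ligands of the family, 3 of 5 were tested (Nrg3 and Nrg4 were not). Nrg2 was at least 1.78-fold higher at day 1 in TdTomato podocytes (1.34 ± 0.40, adjusted p 0.0067) and at least 1.37-fold higher at day 4 (adjusted p 0.044), with 0 of 4 arrays above background at day 0. With normexp neither passed and the changes were -0.01 and -0.08, and the day 4 call was lost in 11 of 16 alternatives. Egf, the founding ligand of the family, fell by 0.69 ± 0.17 at day 4 (adjusted p 0.0017), a call lost with quantile normalization (-0.45). Egf was also among the markers chosen for the distal nephron and collecting duct. Of the 7 tested markers of that list, 2 were higher and 2 lower in TdTomato podocytes at day 4. The part of other cell types in the fall of Egf was not tested.

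Among 10 proteases that release ligands and their regulators, 3 rose and 4 fell at day 1 in TdTomato podocytes, 2 rose and 4 fell at day 4, and 3 rose and 1 fell at day 7. Over all genes 23.8% rose and 27.9% fell at day 1, 21.4% and 35.9% at day 4, and 10.9% and 8.45% at day 7. The median change of the list was -0.42, -0.48 and 0.19 at these days, and that of all genes -0.13, -0.28 and -0.13. Rhbdf1, which encodes an inactive rhomboid that carries ADAM17 to the cell surface, was 5.44-fold higher at day 1 (2.44 ± 0.34, adjusted p 1.5e-06) and 8.56-fold higher at day 4 (3.10 ± 0.34, adjusted p 6.2e-08). Rhbdl2, which encodes a rhomboid protease, was 19.8-fold higher at day 1 (4.31 ± 0.31, adjusted p 6.6e-11), and Rhbdf2 4.0-fold higher (2.0 ± 0.26, adjusted p 7.2e-07). Adam10, which encodes a protease that releases EGF and betacellulin, was 3.31-fold lower at day 1 (adjusted p 6.3e-08). In EGFP podocytes at day 7, 2 of the 10 rose and 0 fell, where 5.33% of all genes rose and 1.92% fell. These were Rhbdl2, 15.6-fold higher (3.96 ± 0.31, adjusted p 3.0e-09), and Rhbdf1, 2.16-fold higher (1.11 ± 0.34, adjusted p 0.046). With normexp the Rhbdl2 change was 2.38 at day 1 in TdTomato podocytes and 1.88 at day 7 in EGFP podocytes, and both passed. The Rhbdf1 call was lost in 11 of 18 alternatives (0.95 to 1.20).

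Of 17 tested genes that ERK signalling induces, 8 rose and 3 fell at day 1 in TdTomato podocytes, 6 rose and 4 fell at day 4, and 6 rose and 0 fell at day 7. The shares over all genes were 23.8% higher and 27.9% lower at day 1, 21.4% and 35.9% at day 4, and 10.9% and 8.45% at day 7. The median change of the list was 0.39, 0.10 and 0.17, and that of all genes -0.13, -0.28 and -0.13. Myc, a transcription factor of growth, was at least 36.3-fold higher at day 1 (6.84 ± 0.44, adjusted p 1.4e-11), at least 15.1-fold at day 4 and at least 6.41-fold at day 7. Dusp4, which encodes a phosphatase that switches off ERK, was at least 7.00-fold higher at day 1 (adjusted p 2.2e-05) and at least 21.3-fold higher at day 4 (adjusted p 2.1e-07), and with normexp the day 1 call was lost. Etv4, an ETS transcription factor, was 7.73-fold higher at day 1 and Spry1, a feedback inhibitor, 6.62-fold higher. The log2 change of Etv4 was 2.95 with the brightest probe and 4.51 with the mean of its probes, and that of Myc was 2.49 with normexp. At day 7 Ccnd1, which encodes cyclin D1, was 7.03-fold higher in TdTomato podocytes (adjusted p 6.8e-06).

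In EGFP podocytes 0 of the 17 passed with limma at day 1 (0 at an unadjusted p under 0.05), 1 rose at day 4 and 5 rose at day 7, with 0 falling at any of these days. Over all genes 0.0256% passed at day 1 and 0.595% at day 4, and 5.33% rose and 1.92% fell at day 7. The median change of the 17 genes at day 7 was 0.25, against 0.00 for all genes. Ccnd1 was 10.4-fold higher at day 7 than at day 0 (3.38 ± 0.30, adjusted p 3.5e-08), with signals of 4.20, 4.33, 3.99 and 4.67 at day 7 and 0.59, 0.63, 1.26 and 1.19 at day 0. The day 7 and day 0 signals did not overlap. Fosl1, an AP-1 subunit, was 6.74-fold higher (2.75 ± 0.41, adjusted p 5.1e-05), and Etv4 2.53-fold (1.34 ± 0.24, adjusted p 4.6e-04). With normexp these changes were 1.5 and 0.94, and with the mean of its probes that of Etv4 was 2.39, and all passed. Myc changed by 2.98 ± 0.44 (adjusted p 5.5e-05), with 1 of 4 day 0 arrays well above background, and this call was lost with normexp (0.69). Etv5 was 2.57-fold higher at day 4 (1.36 ± 0.29, adjusted p 0.022), a call lost in 6 of 17 alternatives (1.24 to 1.36).

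Among 20 adaptors and members of the Ras-ERK cascade, 7 rose and 10 fell at day 1 in TdTomato podocytes, 0 rose and 13 fell at day 4, and 0 passed with limma in either direction at day 7 (2 at an unadjusted p under 0.05). Over all genes 23.8% rose and 27.9% fell at day 1, 21.4% and 35.9% did so at day 4, and 10.9% and 8.45% at day 7. The median change of the list was -0.42, -0.58 and -0.25, and that of all genes -0.13, -0.28 and -0.13. At day 1 Gab1, a docking protein of the receptors, was 2.40-fold higher (adjusted p 9.6e-04), and Hras, a Ras protein, 2.62-fold and Mapk3, which encodes ERK1, 2.55-fold lower. At day 4 Araf, a RAF kinase, was 2.13-fold lower (adjusted p 6.4e-06). In EGFP podocytes 1 of 20 passed at day 7, the kinase gene Akt1, 1.58-fold higher (adjusted p 0.019), a call lost in 5 of 18 alternatives. Over all genes 7.25% passed in that comparison, so this count is not a result about the list.

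Among 14 genes of receptor turnover and inhibition, 2 rose and 5 fell at day 1 in TdTomato podocytes, 2 rose and 8 fell at day 4, and 0 rose and 1 fell at day 7. Beside these stand 23.8% higher and 27.9% lower of all genes at day 1, 21.4% and 35.9% at day 4, and 10.9% and 8.45% at day 7. The median change was -0.44, -0.80 and -0.08 for the list and -0.13, -0.28 and -0.13 for all genes. Lrig1, which encodes a membrane protein that promotes receptor degradation, was 4.06-fold higher at day 1 (2.02 ± 0.31, adjusted p 7.7e-06). Cblc, which encodes a ubiquitin ligase of the Cbl family, was 13.8-fold higher at day 4 (3.78 ± 0.52, adjusted p 2.2e-06; 1.83 with normexp), and its relative Cblb was 2.21-fold lower (adjusted p 1.4e-07). Errfi1, which encodes a direct inhibitor of EGFR, was 1.66-fold lower at day 1 and 1.93-fold lower at day 4. In EGFP podocytes 0 of the 14 passed with limma at any day, and 0 had an unadjusted p under 0.05. Over all genes 0.0256%, 0.595% and 7.25% passed at days 1, 4 and 7.

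**Figure D4:**
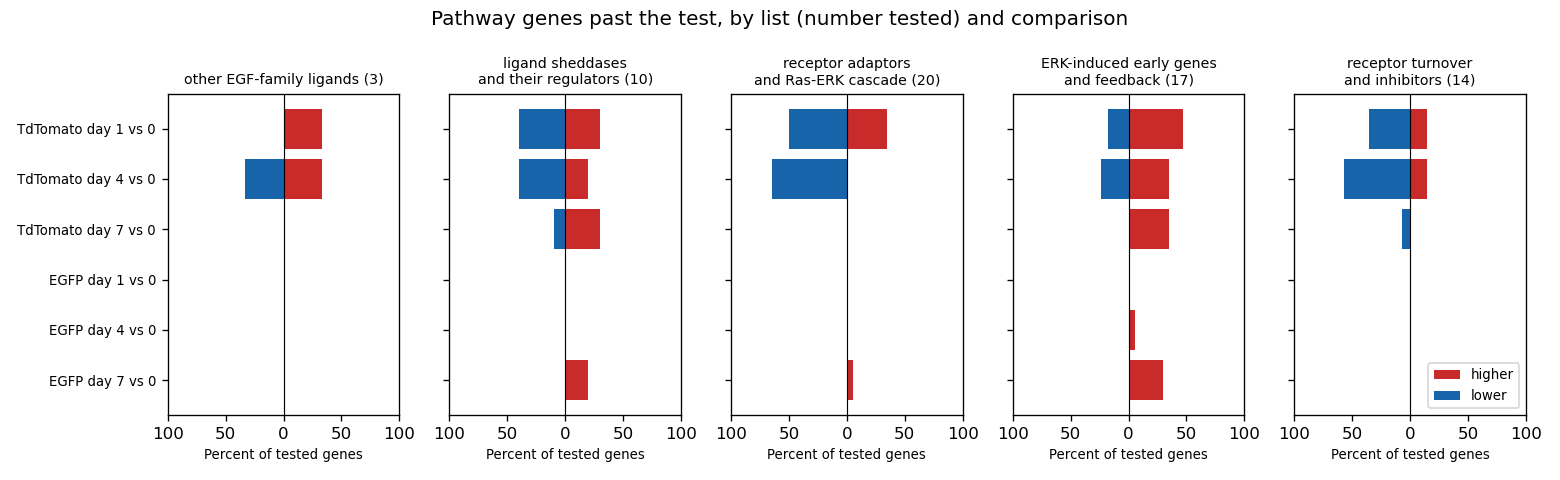
Percent of the tested genes of each pathway list (horizontal axis, higher to the right and lower to the left of 0) that passed the test, by comparison (vertical axis), with the number tested in each title. TdTomato podocytes show calls in both directions at days 1 and 4, and EGFP podocytes at day 7 show 5 of 17 ERK-induced genes higher and 0 lower. Over all genes 5.33% were higher and 1.92% lower in EGFP podocytes at day 7.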

How the data were processed

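Signals came from the scanner files of 29 one-colour Agilent arrays. Per the file headers and the submitters' processing notes, Agilent Feature Extraction 11.5.1.1 made the deposited intensity, the processed signal, which is already background-subtracted. The log2 values of the authors' series matrix (39430 probes) were also deposited, and how they were scaled is not stated in the labels. Of its 29 columns, 27 equal the scanner signal of their own array up to a constant (tolerance 0.0001), and the 2 columns of mouse MC221 equal the means of the day 7 groups, so the matrix served as an alternative. The MC221 columns were left out of it, so its TdTomato group at day 7 was MC791 alone. Apart from the constants, it repeats the scanner signals without both MC221 arrays for the probes it holds. Replicates are separate mice, per the labels.

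The processed signal was turned into log2, less the 75th percentile of the array, and spots with outlier flags were left out. Of 55681 probes 38201 passed the filter, well above background on at least 3 arrays. Probes were named through RefSeq accessions: 26582 had 1 symbol, 29099 none and 0 several, and 20466 past the filter were named. The brightest probe stood for its gene. limma 3.58.1 in R 4.3.3 fitted 8 group means to all 29 arrays (15639 genes, 48 missing values, none in a member). The fit was tested on simulated data in which arrays were drawn independently, with no effect of the mouse. This does not check how the fit treats the 2 populations of a mouse. Tables were made with pandas 2.3.3 and numpy 2.4.6 in Python 3.11.15, figures with matplotlib 3.10.9.

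Within a population every later day was set against day 0, within a day TdTomato was set against EGFP, and both changes were set against each other. These made 13 comparisons, and 3 between later days were added after the data were seen. The mouse number pairs the populations, since 13 mice gave both. The correlation of their deviations from the group means ran from 0.04 (MC823) to 0.64 (MC122). The main fit took all arrays as independent, and the mouse was a replicate block in an alternative. For comparisons between days this block was a single correlation shared by the arrays of a mouse. For TdTomato against EGFP and for differences of changes it was a fixed term for each mouse. There only the 13 mice with both populations counted. The members and the lists were chosen with earlier results of these data known. All members are named, at most 4 genes of a list for each comparison (past the test, largest change), of which the text gives those that matter, and for each tested member the 3 genes with the highest r. Alternatives were normexp (offset 50), quantile normalization, the filter on dim probes dropped or raised to 15 arrays, the mean of probes, only the groups compared, the mouse and the slide as blocks, the authors' matrix, and each array left out. Normexp started from the median spot signal in place of the mean.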

Additional observations from a re-analysis of the deposited data

Results flagged for a closer look

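In TdTomato podocytes at day 1 the Nrg1 signal of mouse MC541 was 1.40, apart from the other 3 arrays at 3.24 to 3.32. Its gap to the nearest array was 0.959 of the range of the group, above the limit of 0.829 for 4 arrays. It was 1 of 36 groups tested for such gaps, and chance gives about 1 in 20.

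The change from day 0 differed between TdTomato and EGFP podocytes in 7 tests of the difference with limma. For Nrg1 the TdTomato change exceeded the EGFP change by 7.30 at day 1 (adjusted p 4.3e-08) and 7.98 at day 4 (adjusted p 4.0e-09). For Egfr it exceeded it by 5.61 at day 1 (adjusted p 1.9e-06) and 4.67 at day 4 (adjusted p 1.3e-05), and for Hbegf by 3.02 at day 4 (adjusted p 4.8e-05). For Erbb2 the difference was -1.43 at day 1 (adjusted p 1.0e-03) and -1.12 at day 4 (adjusted p 0.0055). Among all tested genes 38.4% had such a difference at day 1 and 44.3% at day 4.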

How the results depend on the processing

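Across the alternatives, 1730 values of single members were recomputed. Of these 584 kept a call and its direction, 1065 were not called under either setting (50 of them with another sign), 40 lost and 41 gained a call, and 0 called values changed sign. The rises of Nrg1 and Egfr at days 1 and 4, of Hbegf at days 4 and 7 and of Nrg1 at day 7 in TdTomato podocytes, the fall of Erbb2 at days 1 and 4 in TdTomato podocytes and the rise of Nrg1 at day 7 in EGFP podocytes passed in every alternative run. The count of members past the test changed by more than 1.5 times as follows. For EGFP at day 7 against day 0 it was 2, and 1 with the authors' series matrix, 1 without both MC221 arrays and 1 to 2 with single arrays left out. For TdTomato against EGFP at day 1 it was 3, and 5 with the mouse as a replicate block, with 3 to 5 when single arrays were left out. For TdTomato against EGFP at day 7 it was 1, and 0 with only the groups compared, 0 in the authors' matrix, 0 without both MC221 arrays and 0 to 1 with single arrays left out. For the difference of changes at day 1 it was 3, and 5 with the replicate block. For that at day 7 it was 0, and 1 with quantile normalization and 0 to 1 with single arrays left out. For TdTomato at day 4 against day 1 it was 1, and 2 with normexp and 3 with no filter. For TdTomato at day 7 against day 4 it was 2, and 1 in the authors' matrix, 1 without both MC221 arrays and 1 to 3 with single arrays left out. For EGFP at day 7 against day 4 it was 1, and 2 with quantile normalization, 2 with the strict filter, 2 with the replicate block, 4 with the slide as a block, 0 with only the groups compared, 0 in the authors' matrix, 0 without both MC221 arrays and 0 to 3 with single arrays left out (0 without MC823 or MC221, 2 without MC824 and 3 without MC822). The replicate block changed 11 calls of single members in all, 9 gained and 2 lost. Of the genes of the pathway lists, the Nrg2 change was -0.00796 at day 1 and -0.0824 at day 4 with normexp, against 1.34 and 0.96, close to the detection limit.

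What limits these values is the background. Nrg1, Nrg2, Myc and Dusp4 were not detected before LMB2 in TdTomato podocytes, so their folds are lower bounds, and Nrg1 was near the background in EGFP podocytes up to day 4. Egfr was near the background in TdTomato podocytes at day 0, so the size of its folds against that day is uncertain. The day 7 TdTomato group had 2 arrays. The p-values of the main fit measure the spread between arrays within groups, with the 2 arrays of a mouse taken as independent. Beyond the values given, the causes were not tested.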
